A study of Canis lupus familiaris with 8 samples.

Results

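Gene expression in the pituitary gland was compared with that in the adrenal cortex of adult dogs. The comparison took in 4 pituitary and 4 adrenal cortex libraries, 8 of the 8 libraries of the study, joined gene by gene over 24580 annotated dog genes. Each gland had 1 library from each of 4 kinds of dog: Beagle after chronic stress exposure, unexposed Beagle, Chinese Field Dog after chronic stress exposure, and unexposed Chinese Field Dog. The labels call the unexposed dogs "non-disposal", which was read as not exposed. Breed and exposure were therefore matched between the glands, but the labels do not say whether the 2 glands of a kind came from the same dog, how many dogs gave RNA to a library, or their sex. The animals are described only as adult, the stress procedure is not described in the labels, and RNA was sequenced on an Illumina Genome Analyzer IIx. With 1 library of a kind, p-values measure only the spread among these libraries, which may be technical in part.

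The pituitary and the adrenal cortex are successive stations of the stress axis. Corticotropin-releasing hormone and vasopressin from the hypothalamus act on corticotroph cells of the anterior pituitary, which cut the POMC precursor into adrenocorticotropic hormone (ACTH). ACTH binds its receptor on cortical cells of the adrenal and raises cAMP, and these cells turn cholesterol into cortisol, which feeds back on the pituitary and the brain. The anterior pituitary also holds cells that make growth hormone, prolactin, thyrotropin and the gonadotropins, each under its own releasing or inhibiting factor.

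Values are given as FPKM, fragments per kilobase of annotated transcript scaled to the mapped fragments of the library. This allows for transcript length and library depth, but not for differences in composition between libraries. FPKM summed over all genes ran from 878323 to 1086420 in pituitary and from 1338370 to 1707460 in adrenal cortex. Sums of FPKM carry this offset, and small differences between the glands can depend on the scaling. The median gene did not carry it, with a log2 difference (pituitary minus adrenal cortex) of −0.001. Runs of 4 values always follow the order stressed Beagle, unexposed Beagle, stressed Chinese Field Dog, unexposed Chinese Field Dog. The difference between the glands is a log2 difference on the log2(FPKM + 1) scale, pituitary minus adrenal cortex, which understates the change of genes with low values. A gene was called when limma's adjusted p was under 0.05 and the difference was at least 2-fold, a log2 difference of 1.

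Read counts recovered from the deposited values ranged from 14327356 to 18712033 per library. The first principal component held 61.4% of the variance and separated the glands. The second held 11.6% and set the stressed Chinese Field Dog pituitary apart from the other 7 libraries. That library carried transcripts of forebrain neurons: SLC17A7, the vesicular glutamate transporter of cortical neurons, was at 0.715, 0.439, 203 and 0.518 FPKM in the pituitary libraries, and the summed level of 15 forebrain genes was 852 there against 7.97 to 12.3 in the other pituitary libraries. Values without this library are given beside the list counts and genes whose call it decides. The adrenal cortex libraries carried transcripts of the adrenal medulla, described after the cortical genes. The labels' extraction text speaks of spleen. The summed level of 15 lymphocyte genes was 226 FPKM in the stressed Chinese Field Dog pituitary, 10.8 to 54.8 FPKM in the other pituitaries and 18.6 to 55.4 FPKM in adrenal cortex. The chemokine CCL5 made up 138 FPKM of the highest sum, and the rest of that sum was still above the full sum of any other library. The B-cell gene MS4A1 was at 0, 0.166, 0.176 and 0.108 FPKM in pituitary and 0, 0.0651, 0 and 0.207 FPKM in adrenal cortex, and TLX1, a spleen developmental factor, at 0, 0.0689, 0 and 0.0668 and 0, 0, 0 and 0 FPKM.

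Of 14808 genes with a mean of at least 1 FPKM, 2198 were called higher in pituitary, 14.8% of those tested, and 1748 higher in adrenal cortex, 11.8%. In either direction 3946 were called (26.6%), and 8962 had an adjusted p under 0.05 at any size of difference (60.5%). At least 8-fold differences were called for 265 genes in the direction of the pituitary (1.79%) and 198 in that of the adrenal cortex (1.34%). The 4 libraries of each gland did not overlap in 4226 genes (28.5%) on the pituitary side and 4370 (29.5%) on the adrenal side. The median log2 difference over all genes tested was −0.001. The library medians of log2(FPKM + 1) were on average 0.076 higher in pituitary. With each library centred on its median, 2054 genes were called higher in pituitary and 1975 higher in adrenal cortex. The pituitary share of all calls was 55.7% without centring, 51.0% with it and 59.3% with edgeR on recovered reads. The size of the excess on the pituitary side therefore varied with the scaling and the test, in both directions. Without the stressed Chinese Field Dog pituitary, 2125 and 1809 genes were called. Because a gene near 0 in 1 gland passed the level filter only through the other, counts of members of a gene list are read as a description beside these shares.

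**Figure D1:**
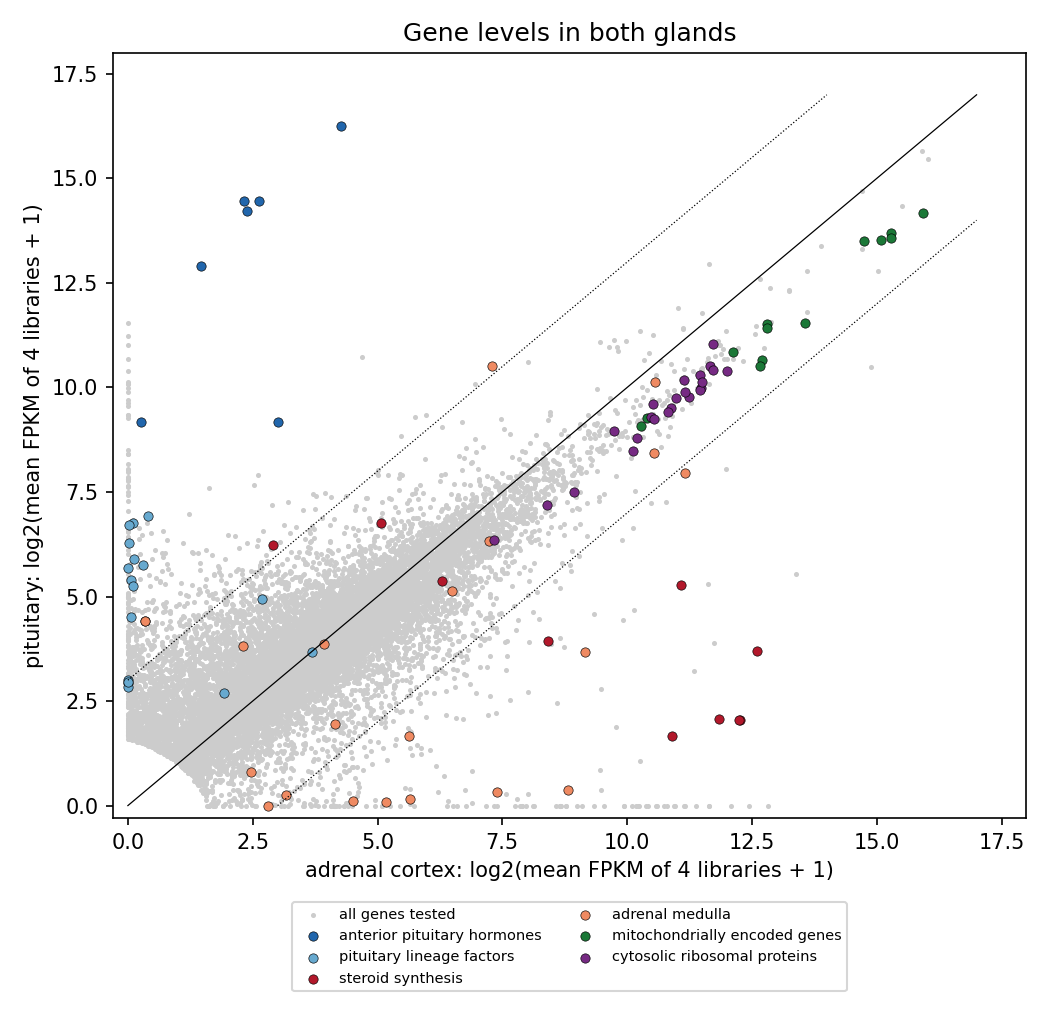
Mean level of each of 14808 genes tested, as log2(mean FPKM + 1), in the 4 adrenal cortex libraries (x axis) and the 4 pituitary libraries (y axis), with 6 gene lists in colour; the solid line marks equal levels and the dotted lines an 8-fold difference. Hormone genes lie far above the line and the main steroid enzymes far below it, while ribosomal and mitochondrially encoded genes form bands below the line.

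The 5 genes used to check the glands, POMC, PRL, GH1, STAR and CYP17A1, separated them in every library that had a value. POMC, the ACTH precursor (ENSCAFG00000004149, chr17:19431584-19438100 in CanFam3.1), was at 26578, 23764, 10147 and 30314 FPKM in pituitary and 6.29, 3, 5.53 and 5.95 FPKM in adrenal cortex. Its means were 22701 ± 8789 and 5.19 ± 1.49 FPKM (SD, n = 4 each), with a log2 difference of 11.77 ± 0.35 (SE; limma adjusted p = 1.17e-07). The lowest pituitary value, in the stressed Chinese Field Dog, was still far above the highest adrenal value. PRL, prolactin (chr35:20673829-20704309), was at 31807, 31611, 11160.3 and 15848 FPKM in pituitary and 4.48, 3.31, 2.34 and 5.84 FPKM in adrenal cortex (log2 difference 12.06 ± 0.38, limma adjusted p = 1.38e-07). Both Chinese Field Dog pituitaries were below both Beagle pituitaries for PRL.

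GH1, growth hormone (chr9:11832264-11834123), had the highest mean level in pituitary, over the 3 libraries with a value. In the stressed Beagle pituitary TMSB10, an actin-binding thymosin, was slightly above it at 75783 FPKM. The authors' software marked its estimate as failed in the unexposed Beagle pituitary, where it is listed at 0, so that library was left out for this gene. The other 3 pituitary libraries held 73846, 81835 and 78999 FPKM, and the adrenal cortex libraries 16.5, 11.9, 16.6 and 28.4 FPKM. The fit on 7 libraries gave a log2 difference of 12.04 ± 0.26 (limma adjusted p = 9.16e-08). With the failed value taken as 0, an alternative added after seeing the data, the log2 difference was 7.98 and the call was lost (limma adjusted p = 0.0771).

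The remaining hormone genes followed the same direction. CGA, the subunit shared by thyrotropin and the gonadotropins, was at 22898, 17056, 14716 and 22084 FPKM in pituitary and 4.37, 2.11, 4.32 and 6.06 FPKM in adrenal cortex. LHB, the specific subunit of luteinising hormone, was at 9154, 8286, 4603 and 8871 and 1.98, 0.812, 1.87 and 2.39 FPKM. FSHB, that of follicle-stimulating hormone, was at 281, 337, 826 and 882 FPKM in pituitary and 0, 0, 0.311 and 0.475 FPKM in adrenal cortex, where both Beagle libraries were at 0. The pituitary levels of FSHB were lower in both Beagle libraries than in both Chinese Field Dog libraries. TSHB, that of thyrotropin, was at 892, 813, 203 and 413 FPKM in pituitary and 6.43, 10, 7.17 and 4.48 FPKM in adrenal cortex. Its mean was 82.7 times higher in pituitary, the smallest ratio of the 7 (limma adjusted p = 1.34e-05). All 7 hormone genes were called higher in pituitary, with a median log2 difference of 11.77, where 14.8% of all genes tested were. Together they took 11.05%, 7.871% and 10.93% of recovered reads in the 3 pituitary libraries with a GH1 value, 5.664% in the unexposed Beagle without it, and 0.00195% to 0.00325% in adrenal cortex.

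**Figure D2:**
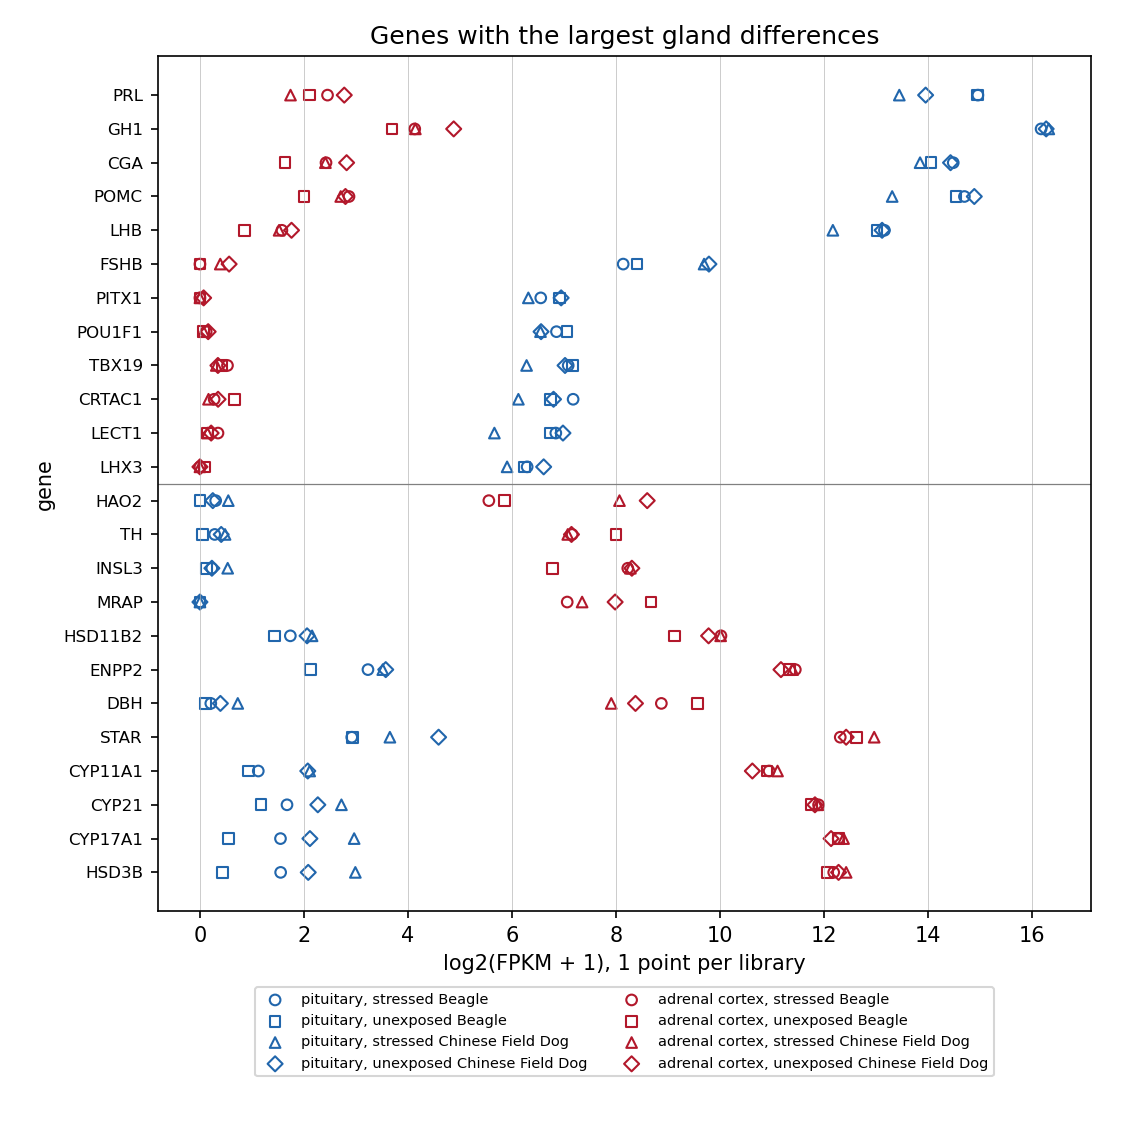
Level of the 12 genes with the largest difference in each direction, as log2(FPKM + 1), 1 point per library; colour marks the gland and symbol the kind of dog. Pituitary and adrenal points do not overlap for any of the 24 genes; GH1 has 3 pituitary points because its estimate failed in the unexposed Beagle.

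Transcription factors that specify pituitary cell lineages were called higher in pituitary for 16 of 18 genes tested, against 14.8% of all genes. Their median log2 difference was 4.73. Of 21 genes found for this list, 7 were at 0 in all 4 adrenal libraries and could pass the level filter only through pituitary. In bulk tissue, fewer cells of a type and less RNA per cell cannot be told apart, here and for the lists that follow. PITX1, a homeobox factor of the early pituitary placode, was at 92.9, 119, 78.6 and 122 FPKM in pituitary and at 0, 0, 0 and 0.0504 FPKM in adrenal cortex (log2 difference 6.66 ± 0.14, limma adjusted p = 2.85e-08). POU1F1, required for the growth hormone, prolactin and thyrotropin lineages, was at 115, 132, 92.5 and 93.2 FPKM against 0.0868, 0.0483, 0.0502 and 0.116 FPKM. TBX19, the T-box factor of the POMC lineage, had the highest level of the list, 134, 142, 76.7 and 129 FPKM against 0.443, 0.339, 0.244 and 0.271 FPKM. LHX3, a LIM-homeobox factor of the whole anterior lobe, was at 77.3, 74.4, 58.9 and 96.6 FPKM in pituitary and at 0 in 3 of 4 adrenal libraries. For these genes the stressed Chinese Field Dog pituitary held the lowest pituitary value.

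SIX3, SIX6, SOX2 and NEUROD4 had log2 differences between 5.03 and 5.65. NEUROD4 varied most among the pituitaries, at 36, 140.4, 30 and 27.5 FPKM, with the unexposed Beagle well above the other 3. FOXL2, PAX7 and OTX2 were expressed at lower levels in pituitary, between 1.09 and 14.4 FPKM, and were at 0 in all 4 adrenal libraries. The calls of PAX7 and OTX2 were lost in the 4 Chinese Field Dog libraries alone (limma adjusted p = 0.0831 and 0.0943). The 2 genes not called were GATA2, a factor of gonadotroph and thyrotroph cells that many other cells use, at 9.57, 11.9, 8.88 and 17 FPKM in pituitary and 13.5, 15.4, 7.64 and 10.6 FPKM in adrenal cortex, and ISL1, at 4.88, 6.24, 5.12 and 5.69 and 3.62, 3.82, 1.63 and 2.2 FPKM. The ISL1 libraries did not overlap, but the log2 difference of 0.80 was under 2-fold.

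Receptors through which the hypothalamus and the periphery act on pituitary cells were called higher in pituitary for 10 of 12 genes tested. Of all genes tested 14.8% were, and the median log2 difference of the list was 3.24. GHRHR, the receptor for growth-hormone-releasing hormone, was at 38.5, 73.4, 41.1 and 36.6 FPKM in pituitary and at 0 in all 4 adrenal libraries (log2 difference 5.54 ± 0.21, limma adjusted p = 3.21e-07). CRHR1, the corticotropin-releasing hormone receptor, was at 38, 43.7, 38.7 and 38.5 FPKM and varied little among the pituitaries, against 0.171, 0.254, 1.45 and 0.354 FPKM in adrenal cortex. GHSR, the ghrelin receptor, was at 22.1, 38.7, 13.4 and 13.5 FPKM against 0, 0.0817, 0.0845 and 0 FPKM, and DRD2, through which dopamine restrains prolactin cells, at 40.2, 37.6, 18.3 and 36.5 FPKM against 0.57, 2.3, 0.271 and 1.09 FPKM. GNRHR was at 0 in adrenal cortex as well, and so were AVPR1B, the vasopressin receptor of corticotrophs, and the somatostatin receptor SSTR5. AVPR1B was at 1.56, 4.99, 1.76 and 1.46 FPKM in pituitary. LEPR, the leptin receptor, went the other way, at 1.02, 0.631, 0.541 and 0.742 FPKM in pituitary and 4.67, 3.03, 4.82 and 3.63 FPKM in adrenal cortex (log2 difference −1.53 ± 0.17, limma adjusted p = 8.93e-05). ESR1, the oestrogen receptor, was not called, at 9.16, 11.9, 6.78 and 9.91 and 18.9, 16.1, 18.7 and 17.2 FPKM. SSTR2 was not called in the Chinese Field Dog libraries alone (limma adjusted p = 0.113).

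Genes of the secretory granule and of prohormone processing were called higher in pituitary for 12 of 17 members (median log2 difference 1.65), against the 14.8% of all genes. PCSK2, the convertase that trims POMC peptides further in melanotrophs, had the largest difference, with 60.4, 31.5, 32.6 and 53.7 FPKM in pituitary and 2.6, 3.99, 1.82 and 2.24 FPKM in adrenal cortex (log2 difference 3.61 ± 0.26, limma adjusted p = 9.24e-06). PCSK1, which releases ACTH from POMC, was at 112, 156, 83.6 and 108 FPKM against 18.4, 23.6, 11.8 and 12.2 FPKM. The granin SCG2 was at 1563, 1315, 1379 and 1561 FPKM against 192, 206, 118 and 112 FPKM, and CPE, which removes the basic residues left by convertases, at 1070.0, 1114, 1260.1 and 881 FPKM against 128, 165, 92.9 and 106 FPKM. GNAS, which encodes the stimulatory G protein subunit and lies in a complex imprinted locus, had the highest level of the list, 2422, 2293, 1878 and 2199 FPKM against 1020.5, 1174, 911 and 931 FPKM, and its log2 difference was 1.12 ± 0.13 (limma adjusted p = 0.000116).

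Granins did not share a direction. CHGA, which the chromaffin cells of the adrenal medulla store with catecholamines, was called higher in adrenal cortex, at 1919.9, 1752, 989 and 1316 FPKM against 289.8, 439.7, 319 and 322 FPKM in pituitary (log2 difference −2.09 ± 0.23, limma adjusted p = 8.7e-05). CHGB was abundant in both glands, at 1014, 1061, 1098 and 1339 FPKM in pituitary and 1539, 1756, 1414 and 1283 FPKM in adrenal cortex, and its log2 difference of −0.41 was under 2-fold. VGF was not called with all 8 libraries (log2 difference −1.15, limma adjusted p = 0.0612). Without the stressed Chinese Field Dog pituitary it was called higher in adrenal cortex (−1.52, limma adjusted p = 0.00953), as it was without the unexposed Chinese Field Dog adrenal cortex (−1.36, limma adjusted p = 0.0495).

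Genes of regulated exocytosis were called higher in pituitary for 6 of 15 members (against 14.8% of all genes) and in adrenal cortex for 1 (against 11.8%). Without the stressed Chinese Field Dog pituitary, 3 stayed called higher: RAB3A, RAB3B and RIMS1. RAB3A, a small GTPase of secretory vesicles, was at 90.7, 107, 320.5 and 92.3 FPKM in pituitary and 22.2, 68.8, 16.9 and 24.1 FPKM in adrenal cortex (log2 difference 2.17 ± 0.53, limma adjusted p = 0.00699); the call was lost in the Beagle libraries alone (0.114). RAB3B was at 6.01, 9.55, 9.09 and 6.43 FPKM against 1.48, 2.76, 0.455 and 0.785 FPKM, with no high value in that library. SNAP25, a SNARE protein of the fusion machinery, had the highest level of the list at 129, 134, 919 and 127 FPKM in pituitary and 81.5, 170.2, 62.5 and 76.1 FPKM in adrenal cortex and was not called (limma adjusted p = 0.141). RIMS2, a scaffold of the release site, was called higher in adrenal cortex, at 53.5, 39.9, 60 and 41.8 FPKM against 7.32, 8.66, 11.7 and 7.13 FPKM in pituitary (log2 difference −2.36 ± 0.18, limma adjusted p = 1.33e-05).

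Voltage-gated channel genes were called higher in pituitary for 9 of 17 members (against 14.8% of all genes) and in adrenal cortex for 2 (against 11.8%). CACNA1A, a presynaptic-type calcium channel, was at 7.43, 10.4, 6.94 and 6.02 FPKM in pituitary and 0.301, 0.223, 0.145 and 0.186 FPKM in adrenal cortex (log2 difference 2.82 ± 0.17, limma adjusted p = 3.15e-06). The sodium channel SCN2A and the calcium channel CACNA1E had log2 differences of 2.56 and 2.52, and both were highest in the stressed Chinese Field Dog pituitary. All 9 channel calls held without that library. CACNA1H, the T-type calcium channel of aldosterone-producing cells, was called higher in adrenal cortex, at 95, 87.5, 78.8 and 111 FPKM against 30.9, 37.9, 31.3 and 36.2 FPKM in pituitary (log2 difference −1.42 ± 0.12, limma adjusted p = 2.11e-05). CACNA1C, an L-type channel, was also called higher in adrenal cortex (14, 18.1, 7.78 and 8.97 against 3.53, 4.27, 4.72 and 2.85 FPKM). Its log2 difference in the Chinese Field Dog libraries alone was just short of 2-fold.

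Genes of the posterior lobe and of pituitary stem and folliculostellate cells had mixed directions. AVP, the vasopressin precursor, was at 37.1, 20.6, 21.4 and 39.2 FPKM in pituitary and 0, 0, 0.221 and 0.0848 FPKM in adrenal cortex (log2 difference 4.77 ± 0.23, limma adjusted p = 1.06e-06). OXT, the oxytocin precursor, was at 69.8, 21, 12.5 and 55.7 FPKM against 9.1, 2.26, 9.52 and 6.76 FPKM, and its call was lost in the Chinese Field Dog libraries alone (limma adjusted p = 0.155). LHX2, a LIM-homeobox factor of posterior-lobe glia, was at 14.4, 4.4, 7.45 and 14.9 FPKM against 0.029, 0.0647, 0 and 0.0258 FPKM. AVP and LHX2, like OXT, were higher in the stressed Beagle and unexposed Chinese Field Dog pituitaries than in the other 2. Of 6 posterior-lobe genes, 5 were called higher in pituitary (against 14.8% of all genes). Of these 5, 3 had a mean of at least 50 recovered reads. SCN7A, a sodium-channel relative, went against the list at 17.9, 26.1, 13.7 and 16 FPKM in adrenal cortex and 2.26, 2.83, 3.47 and 1.93 FPKM in pituitary.

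SOX2, a stem-cell factor, was at 64.5, 47.3, 36.2 and 65.1 FPKM in pituitary and 0.304, 0.34, 0.0878 and 0.202 FPKM in adrenal cortex, and ALDH1A1, a retinoic acid-making enzyme, at 289, 378, 249.5 and 327 FPKM against 83, 59, 69.3 and 32.6 FPKM. With ALDH1A2 these made 3 of 9 stem and folliculostellate genes called higher in pituitary, against 14.8% of all genes. FXYD1, a regulator of the sodium pump, was called higher in adrenal cortex at 153, 148, 113 and 97.3 FPKM against 23.1, 22.9, 24.8 and 24.3 FPKM. PROM1, a membrane glycoprotein of epithelial progenitors, was at 111, 54.9, 111 and 18.1 FPKM in adrenal cortex and 22.8, 17.2, 12.9 and 14.7 FPKM in pituitary; its libraries overlapped. The PROM1 call (limma adjusted p = 0.019) was lost without the stressed Beagle (0.0507) or the stressed Chinese Field Dog (0.0526) adrenal cortex. S100B, a folliculostellate marker that glia share, was at 5.11, 0.505, 83.8 and 2.37 FPKM in pituitary, high in the library with forebrain transcripts, and was not called.

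**Figure D3:**
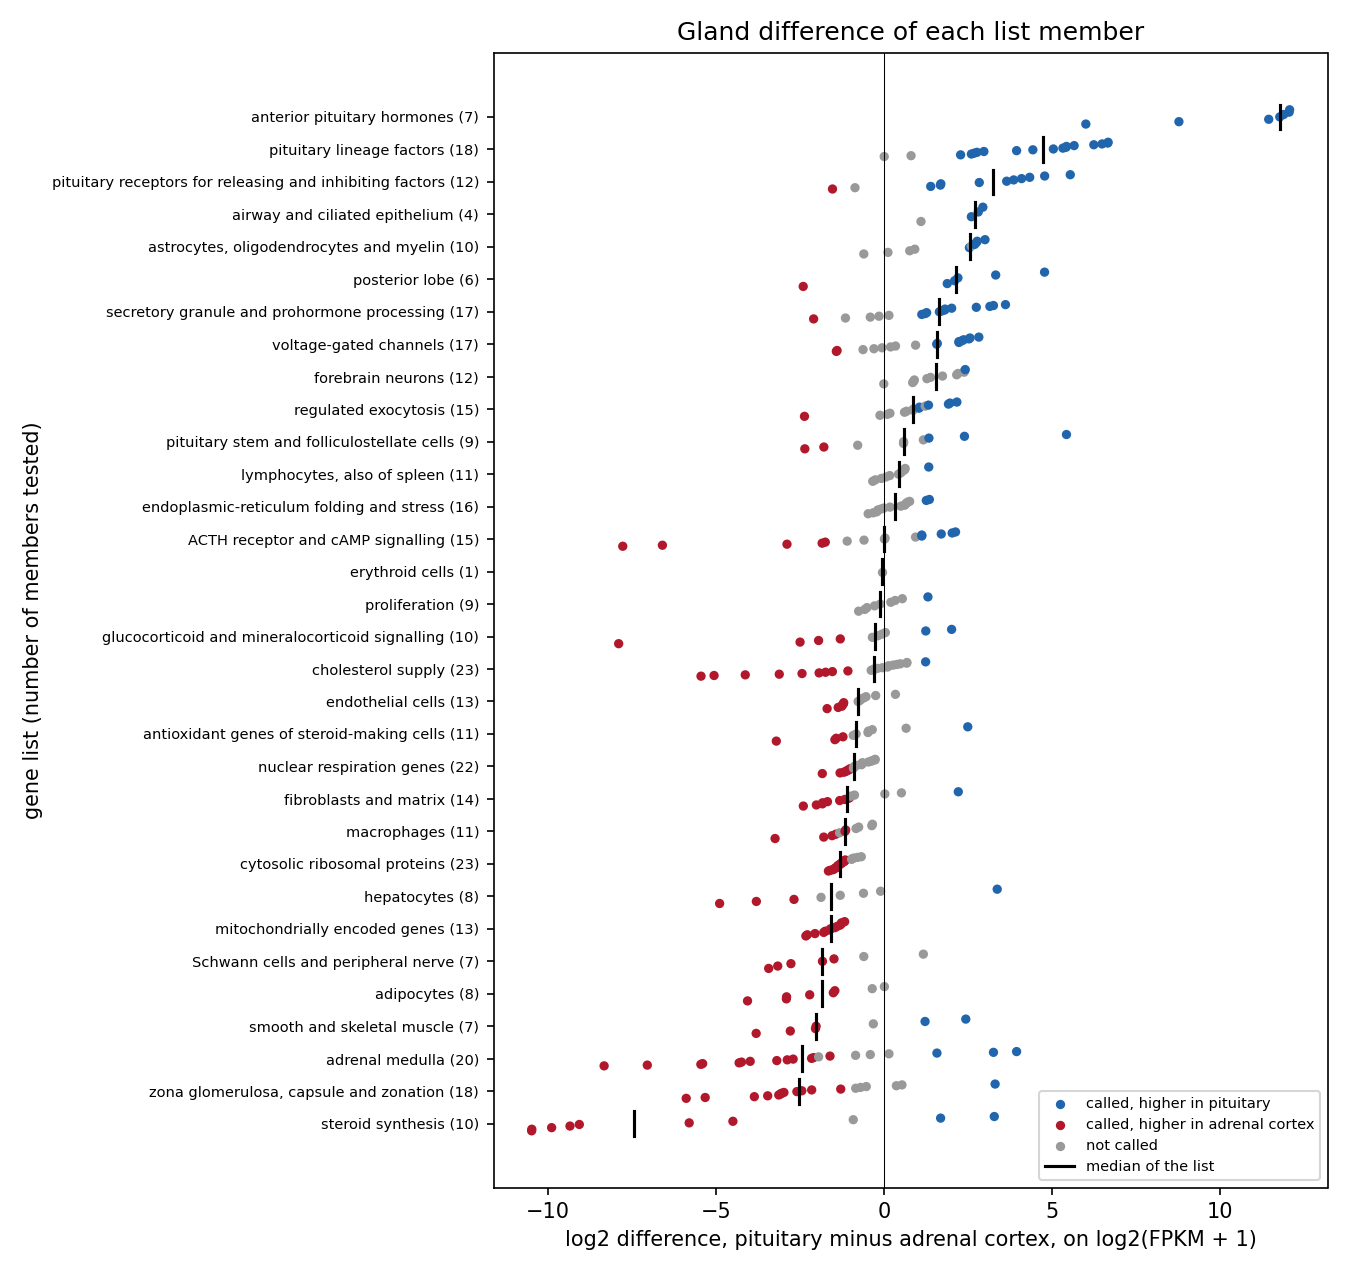
Log2 difference, pituitary minus adrenal cortex on log2(FPKM + 1), of each member tested of 32 gene lists, sorted by the list's median (black bar); blue and red mark members called higher in pituitary and adrenal cortex and grey those not called. Hormone genes and steroid enzymes stand at the ends, with medians of 11.77 and −7.42.

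On the adrenal side, genes of steroid synthesis were called higher in adrenal cortex for 7 of 10 members, with a median log2 difference of −7.42, where 11.8% of all genes tested were. STAR, which moves cholesterol into mitochondria (ENSCAFG00000006126, chr16:27326035-27331117), was at 5079, 6288, 7984 and 5494 FPKM in adrenal cortex and 6.56, 6.63, 11.6 and 23.1 FPKM in pituitary. Its means were 6211 ± 1284 and 12 ± 7.77 FPKM (SD, n = 4 each), with a log2 difference of −9.06 ± 0.36 (limma adjusted p = 4.56e-07). CYP17A1, the 17-hydroxylase that commits steroids to cortisol and androgens (chr28:15292521-15299029), was at 4944, 4949, 5308 and 4494 FPKM in adrenal cortex and 1.93, 0.46, 6.81 and 3.33 FPKM in pituitary (log2 difference −10.47 ± 0.44, limma adjusted p = 5.63e-07). CYP17A1 varied little among the adrenal libraries.

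The gene named HSD3B in the files, for the 3-beta-hydroxysteroid dehydrogenase, was at 4655, 4291, 5495 and 4967 FPKM in adrenal cortex and 1.93, 0.352, 6.93 and 3.23 FPKM in pituitary (log2 difference −10.47). CYP21, the 21-hydroxylase, was at 3804, 3461, 3764 and 3625 FPKM against 2.19, 1.26, 5.59 and 3.81 FPKM (−9.88), and CYP11A1, which cleaves the cholesterol side chain, at 1968, 1912, 2202 and 1573 FPKM against 1.18, 0.903, 3.32 and 3.21 FPKM (−9.33). FDX1 and FDXR, the electron carriers of mitochondrial steroid enzymes, were at 1758, 2175, 2622 and 2115 and 339, 285, 413 and 329 FPKM in adrenal cortex. In pituitary they were at 36.4, 34.9, 40.3 and 39.8 and 13.4, 12.8, 12.9 and 17.8 FPKM, so that their log2 differences were smaller, −5.79 and −4.49. STAR, CYP11A1, CYP17A1, HSD3B, CYP21 and FDX1 together took 3.19% to 3.60% of recovered reads in adrenal cortex and 0.0032% to 0.00793% in pituitary.

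Members that went against the list were CYB5A and PAPSS2. CYB5A, the cytochrome b5 that favours androgen synthesis by CYP17A1 and serves other enzymes too, was at 116, 124, 86.8 and 103 FPKM in pituitary and 26.6, 35.1, 39.6 and 29.9 FPKM in adrenal cortex (log2 difference 1.68 ± 0.15, limma adjusted p = 3.14e-05). PAPSS2, which makes the sulfate donor for steroid sulfation, was at 72.4, 109.7, 56.6 and 56.1 FPKM against 8.54, 5.98, 4.88 and 6.69 FPKM (3.28 ± 0.23, limma adjusted p = 9.24e-06). For both genes the 4 pituitary values lay above the 4 adrenal values. HSD17B4, a peroxisomal enzyme, was under 2-fold (−0.91). CYP11B1, CYP11B2 and NR5A1 are not analysed here.

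**Figure D4:**
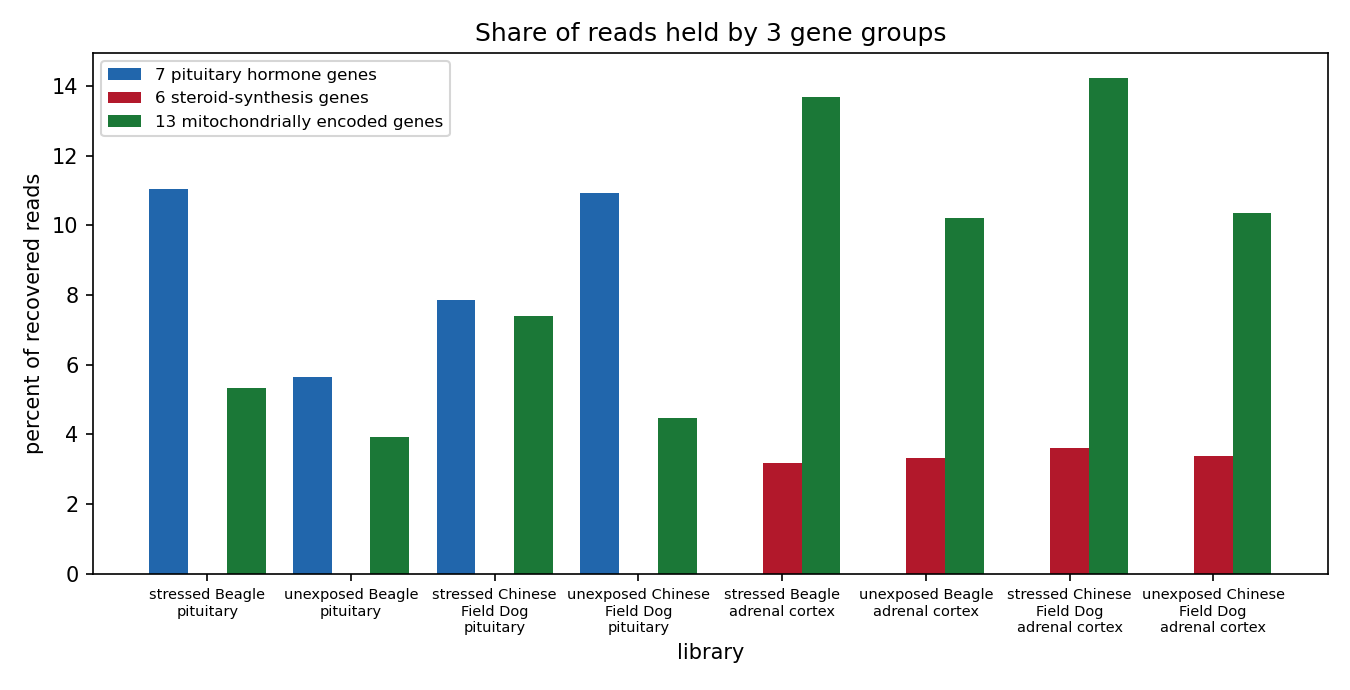
Percent of recovered reads in each of the 8 libraries held by 7 pituitary hormone genes, 6 steroid-synthesis genes and 13 mitochondrially encoded genes. Hormone genes reach 5.664% to 11.05% in pituitary (GH1 is missing in the unexposed Beagle), steroid genes 3.19% to 3.60% in adrenal cortex, and mitochondrially encoded genes are higher in each adrenal library than in any pituitary library.

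The ACTH receptor MC2R and its accessory protein MRAP separated the glands, while the rest of the list did not share a direction. MC2R was at 97.4, 88.9, 98.1 and 96.4 FPKM in adrenal cortex and at 0 in all 4 pituitaries (log2 difference −6.59 ± 0.07, limma adjusted p = 1.28e-09). MRAP, the accessory protein that brings MC2R to the cell surface, was at 133, 407, 162 and 252 FPKM and also at 0 in pituitary, and varied more among the adrenal libraries, with the unexposed Beagle highest. MRAP2, the other accessory protein, was at 7.16, 5.84, 9.34 and 9.32 FPKM in pituitary and 3.36, 7.65, 2.11 and 2.78 FPKM in adrenal cortex and was short of 2-fold (log2 difference 0.94 ± 0.31, limma adjusted p = 0.0282); it was called higher in pituitary with edgeR, with DESeq2, with a pseudocount of 0.1 and in the Chinese Field Dog libraries alone. Of 15 genes of this list, 5 were called in each direction, against 14.8% (pituitary) and 11.8% (adrenal cortex) of all genes. With the stressed Chinese Field Dog pituitary left out, 4 were called higher in pituitary, as PRKACB, a catalytic subunit of protein kinase A, fell just short of 2-fold (log2 difference 0.97, from 1.12 with it). PRKAR2B, a regulatory subunit of protein kinase A, was at 117, 116, 136 and 101 FPKM in adrenal cortex and 12.3, 11.7, 26.7 and 12.9 FPKM in pituitary. NR0B1, a nuclear receptor of the adrenal and of gonadotrophs, was at 12.9, 8.96, 9.67 and 11.8 FPKM against 2.69, 2.88, 1.46 and 3.25 FPKM. On the pituitary side, PDE8B, a cAMP phosphodiesterase, was at 9.44, 9.09, 17.7 and 10.1 FPKM against 1.27, 1.83, 2.29 and 1.84 FPKM in adrenal cortex (log2 difference 2.13 ± 0.22, limma adjusted p = 6.05e-05), and the adenylyl cyclases ADCY3 and ADCY5 had log2 differences of 1.70 and 2.03. The catalytic subunit PRKACA was at 77.9, 81.4, 87.3 and 77.7 and 81.3, 77.9, 71.3 and 87 FPKM, a log2 difference of 0.03.

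Of 23 genes of cholesterol supply, 9 were called higher in adrenal cortex (against 11.8% of all genes) and 1 higher in pituitary (against 14.8%). SCARB1, which takes up cholesterol esters from high-density lipoprotein, was at 1134, 1239.5, 1118 and 986 FPKM in adrenal cortex and 24.9, 23.4, 25.6 and 25.2 FPKM in pituitary (log2 difference −5.44 ± 0.08, limma adjusted p = 9.32e-09). SOAT1, which stores cholesterol as esters, was at 260.0, 242, 271 and 269.5 FPKM against 14.5, 15.2, 12.1 and 14.3 FPKM, and APOE, the most abundant gene of the list, at 1647, 1948, 2199.7 and 1663 FPKM against 426, 286, 888 and 512 FPKM. SQLE, the squalene epoxidase, was called higher in pituitary (log2 difference 1.24 ± 0.45, limma adjusted p = 0.0426), but its libraries overlapped and the call was lost without the stressed Chinese Field Dog pituitary (0.86, limma adjusted p = 0.0706). It was lost as well without the stressed Beagle pituitary (0.0707) and without the stressed Beagle (0.105), stressed Chinese Field Dog (0.102) or unexposed Chinese Field Dog (0.092) adrenal cortex.

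Genes of the outer zone, the capsule and zonation were called higher in adrenal cortex for 12 of 18 members, against 11.8% of all genes. Their median log2 difference was −2.52. GATA6, a transcription factor of the cortex, was at 75.5, 83.8, 62.4 and 71.6 FPKM in adrenal cortex and 0.249, 0.321, 0.339 and 0.124 FPKM in pituitary (log2 difference −5.88 ± 0.11, limma adjusted p = 2.28e-08). DAB2, an endocytic adaptor marking the zona glomerulosa, was at 265, 261, 257 and 249 FPKM and varied little, against 5.28, 5.45, 5.21 and 6.14 FPKM. AGTR1, the angiotensin II receptor, was at 322, 443, 471 and 370.4 FPKM against 39.5, 44.4, 34.2 and 25.7 FPKM, and LEF1, a WNT pathway transcription factor, at 42.9, 59.4, 51.9 and 41.9 FPKM against 2.99, 1.69, 2.33 and 2.85 FPKM. The potassium channels KCNJ5 and KCNK3, which set the resting potential of these cells, had log2 differences of −3.13 and −3.08, and the ligands WNT4, SHH and RSPO3 of −3.05, −2.98 and −2.44. DLK1, a Notch-like membrane protein of the adrenal capsule in some species, was called higher in pituitary, at 7.14, 19.4, 3.74 and 16 FPKM against 0.0331, 0.222, 0 and 0.118 FPKM (log2 difference 3.30 ± 0.43, limma adjusted p = 0.000242).

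Antioxidant genes of steroid-making cells were called higher in adrenal cortex for 4 of 11 members, against 11.8% of all genes. MGST1, a microsomal glutathione transferase, was at 145, 129.5, 224 and 168 FPKM in adrenal cortex and 18.2, 16.1, 15.3 and 17.9 FPKM in pituitary (log2 difference −3.20 ± 0.16, limma adjusted p = 1.44e-06). SOD1, the cytosolic superoxide dismutase, was at 1217, 1063, 1767 and 1049 FPKM against 439.8, 493, 436 and 441 FPKM, and the mitochondrial thioredoxin TXN2 at 275, 302, 317 and 277 FPKM against 114, 112, 101 and 109 FPKM. GPX3, the secreted glutathione peroxidase, was called higher in pituitary, at 537, 767, 459 and 540.5 FPKM against 102, 117, 118 and 70.8 FPKM (2.49 ± 0.21, limma adjusted p = 1.93e-05).

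Among genes of glucocorticoid and mineralocorticoid signalling, 4 of 10 were called higher in adrenal cortex (against 11.8% of all genes) and 2 in pituitary (against 14.8%). HSD11B2, which inactivates cortisol to cortisone, was at 1035, 557, 1031 and 878 FPKM in adrenal cortex and 2.34, 1.69, 3.46 and 3.17 FPKM in pituitary (log2 difference −7.89 ± 0.23, limma adjusted p = 1.1e-07). It was the gene of the list with the highest level and the lowest adrenal value was in the unexposed Beagle. The glucocorticoid-induced genes DUSP1, TSC22D3 and FKBP5 were called higher in adrenal cortex, with log2 differences of −2.50, −1.94 and −1.30. FKBP5 was under 2-fold in the Beagle libraries alone (−0.72). Both receptors were called higher in pituitary: the glucocorticoid receptor NR3C1 was at 25.9, 31.3, 26.2 and 26.2 FPKM against 11.6, 11, 10.2 and 11.1 FPKM (log2 difference 1.24 ± 0.08, limma adjusted p = 7.01e-06), and the mineralocorticoid receptor NR3C2 at 14.9, 16, 11.1 and 13.1 FPKM against 3.18, 2.59, 2.18 and 2.67 FPKM (2.01 ± 0.13, limma adjusted p = 6.46e-06). PER1, KLF9 and ZBTB16, also induced by glucocorticoids, were not called, with log2 differences of −0.18, −0.06 and 0.04.

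The libraries labelled adrenal cortex also held transcripts of the medulla, the catecholamine-making core of the gland. DBH, which makes noradrenaline from dopamine, was at 467, 758, 239 and 331 FPKM in adrenal cortex and 0.156, 0.0805, 0.655 and 0.313 FPKM in pituitary (log2 difference −8.32 ± 0.33, limma adjusted p = 4.22e-07). TH, the first enzyme of the pathway, was at 142, 255, 134 and 140.4 FPKM against 0.217, 0.0374, 0.397 and 0.328 FPKM, and PNMT, which makes adrenaline, at 584, 962, 382 and 345 FPKM against 15.1, 13.7, 8.87 and 9.32 FPKM. For all 3 enzymes the unexposed Beagle adrenal cortex was highest. PENK, the enkephalin precursor, was at 2804, 2854, 1586 and 1878 FPKM against 183, 342, 253 and 216 FPKM, and HAND2, a neural crest transcription factor, at 62.3, 61.2, 29 and 44.4 FPKM against 0.338, 0.116, 0 and 0 FPKM. Of 20 medulla genes, 13 were called higher in adrenal cortex (against 11.8% of all genes). In pituitary 3 were called higher (against 14.8%), SCG2 and RET among them. Leaving out the stressed Chinese Field Dog pituitary gave 14 higher in adrenal cortex, with NPY, a neuropeptide, added (log2 difference −2.97, limma adjusted p = 0.0219). RET, a receptor tyrosine kinase of neural crest cells that growth hormone cells also use, was at 8.61, 15.8, 12.2 and 15.5 FPKM against 2.28, 7.32, 3.19 and 2.92 FPKM, and the call was lost in the Beagle libraries alone (limma adjusted p = 0.115). The summed level of the 20 genes ran from 5093 to 9418 FPKM in adrenal cortex and from 3219.5 to 3598 FPKM in pituitary, where CHGB, SCG2, CHGA and PENK made up most of it. The part of medullary cells in the differences of other genes on the adrenal side was not tested.

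Besides the steroid enzymes, several other genes stood among the 12 with the largest differences in each direction. ENPP2, the secreted enzyme that makes lysophosphatidic acid, was at 2790.3, 2574, 2692 and 2304 FPKM in adrenal cortex and 8.39, 3.38, 10.4 and 10.9 FPKM in pituitary (log2 difference −8.22 ± 0.30, limma adjusted p = 2.82e-07). INSL3, a relaxin-family hormone best known from Leydig cells, was at 298, 108, 309 and 315 FPKM against 0.171, 0.0887, 0.447 and 0.173 FPKM, with the unexposed Beagle adrenal cortex below the other 3. HAO2, a peroxisomal hydroxy-acid oxidase, was at 46, 56.8, 267 and 387 FPKM against 0.233, 0, 0.459 and 0.187 FPKM, and both Chinese Field Dog adrenal libraries were several times above both Beagle ones. On the pituitary side, CRTAC1, a secreted matrix protein, was at 143, 106, 68.7 and 110.3 FPKM against 0.208, 0.581, 0.121 and 0.273 FPKM (log2 difference 6.35 ± 0.22, limma adjusted p = 2.06e-07). LECT1, which encodes chondromodulin, was at 114, 106, 49.6 and 125 FPKM against 0.272, 0.101, 0.105 and 0.161 FPKM.

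Some genes had no read in any library of 1 gland and at least 100 in each library of the other. Counted among genes whose symbol is used once, there were 7 with reads in pituitary and 4 with reads in adrenal cortex. Set against a floor of 3 reads summed over the 4 empty libraries, GHRHR was at least 1475-fold higher in pituitary, SIX6 at least 1003-fold and ILDR1, an epithelial tricellular junction protein, at least 977-fold. ANO9, NKX2-2 and GNRHR were at least 485-fold, 377-fold and 253-fold higher in pituitary. On the adrenal side MC2R was at least 1268-fold higher, MRAP at least 198-fold, and the homeobox genes HOXA6 and HOXC6 at least 170-fold and 164-fold. ILDR1 was at 10.5 to 17.2 FPKM in pituitary, HOXA6 at 15.6 to 19.8 FPKM and HOXC6 at 14.7 to 17.4 FPKM in adrenal cortex. The intervals and the floor cover counting error only.

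Genes of energy metabolism and protein synthesis differed in level rather than in presence. Their list counts stand beside the 11.8% of all genes tested that were called higher in adrenal cortex. Mitochondrially encoded genes were called higher in adrenal cortex for all 13 members with all 8 libraries, with log2 differences from −2.32 (MT-ND2) to −1.17 (MT-ND6). MT-ND2, a complex I subunit, was at 7362, 5338, 8658 and 4671 FPKM in adrenal cortex and 1391, 665, 2785 and 982 FPKM in pituitary (limma adjusted p = 0.0016). COX1, a subunit of cytochrome oxidase, was at 32972, 26731, 31086 and 19601 FPKM against 12529.7, 9016, 15769 and 9031 FPKM. The stressed Chinese Field Dog pituitary was the highest pituitary for both, and the groups did not overlap. In the Chinese Field Dog libraries alone none of the 13 was called by limma, with log2 differences from −1.94 to −0.95, and without the level filter 8 were. These genes took 10.2% to 14.2% of reads in adrenal cortex and 3.92% to 7.40% in pituitary.

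Nuclear genes of respiration were called higher in adrenal cortex for 8 of 22 members, and none was called higher in pituitary. Without the stressed Chinese Field Dog pituitary 9 were called, as NDUFV1, a complex I subunit, passed 2-fold (log2 difference −1.02, from −0.91 with it). In 18 of the 22 the adrenal libraries lay above all pituitary libraries without overlap, where 29.5% of all genes did. SDHC, a complex II subunit, had the largest difference, 263, 285, 370.2 and 273 FPKM in adrenal cortex and 87.4, 70.2, 96.5 and 76.8 FPKM in pituitary (log2 difference −1.83 ± 0.14, limma adjusted p = 1.26e-05). ATP5B, the catalytic subunit of ATP synthase, was the most abundant at 748, 818, 918 and 808 FPKM against 369, 344, 492 and 369 FPKM. Cytosolic ribosomal protein genes were called higher in adrenal cortex for 18 of 23, and all 23 were higher without overlap. RPS12 was at 4269, 3548, 5269 and 3347 FPKM against 1574, 1329, 1137 and 1316 FPKM (log2 difference −1.60 ± 0.18, limma adjusted p = 9.62e-05). Ribosomal protein genes have many processed copies in the genome, so the authors' assignment of reads among copies is uncertain.

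Folding and stress genes of the endoplasmic reticulum were called higher in pituitary for 2 of 16 members, DNAJB9 and CREB3L2. This is near the 14.8% of all genes tested, so the count of calls does not mark the list as a pituitary one. Without overlap, 7 of the 16 were higher in pituitary and 2 in adrenal cortex, against 28.5% and 29.5% of all genes. DNAJB9, a co-chaperone of BiP, was at 70.6, 74.3, 46.1 and 65 FPKM in pituitary and 23.6, 30, 22.8 and 21 FPKM in adrenal cortex (log2 difference 1.35 ± 0.17, limma adjusted p = 0.000184). CREB3L2, a membrane-bound transcription factor of the secretory pathway, was at 28.9, 37.9, 21.2 and 28.4 FPKM against 13.3, 13.5, 8.06 and 11.3 FPKM. HSP90B1, the most abundant, was at 488, 466, 395 and 524 FPKM against 254, 297, 300.3 and 303 FPKM, without overlap but under 2-fold (0.69). HSPA5, the chaperone BiP itself, was at 374, 383, 275 and 373 and 224, 294, 226 and 245 FPKM.

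Of the most abundant transcripts, TMSB10, which encodes an actin-binding thymosin, was high in both glands, at 75783, 49025, 32232 and 24195 FPKM in pituitary and 36111, 113279, 57766 and 59268 FPKM in adrenal cortex. C1orf115 and TIMM13 ranked among the 10 highest in adrenal cortex on FPKM while resting on at most 104 and 15 reads per library, so their level is known less well than that of the others. The genes with the highest level among those with a log2 difference under 0.2 and an adjusted p above 0.5 were UBB, ITM2B, CFL1, SKP1 and GABARAP. UBB, a ubiquitin gene, was at 1764, 1569, 1193 and 1847 FPKM in pituitary and 1180.0, 1514, 1916 and 1944 FPKM in adrenal cortex (log2 difference −0.03 ± 0.21). CFL1, which encodes cofilin, was at 471, 505, 782 and 447 and 529, 606, 548 and 571 FPKM.

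Markers of other cell types moved between the glands as well, and their part in the differences above was not tested. Here and in the paragraphs on cell types below, counts stand beside the shares of all genes tested. These were 14.8% called higher in pituitary and 11.8% called higher in adrenal cortex. Astrocyte, oligodendrocyte and myelin genes were called higher in pituitary for 5 of 10 members. Their summed level was 897 FPKM in the stressed Chinese Field Dog pituitary, 85.7 to 174 in the other 3 pituitaries and 46.8 to 74.7 in adrenal cortex. ALDH1L1, a folate enzyme used as an astrocyte marker, was lowest in that library, at 25.5, 20.1, 7.29 and 18.7 FPKM in pituitary against 1.62, 1.74, 1.52 and 1.33 FPKM in adrenal cortex. MBP, the myelin basic protein, was at 38, 21.3, 271 and 73.3 FPKM against 7.22, 13.7, 7.93 and 8.29 FPKM. Without the stressed Beagle, stressed Chinese Field Dog or unexposed Chinese Field Dog adrenal cortex, 3 of the list were called, as GFAP and SLC1A2 lost their calls. Without the stressed Chinese Field Dog pituitary, 6 were called.

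Of 12 forebrain genes tested, RBFOX3 was called higher in pituitary, at 2.81, 1.81, 26.5 and 3.23 FPKM against 0.091, 0.204, 0.0881 and 0.0807 FPKM, and the other 11 had limma adjusted p from 0.0656 (GRIN1) to 0.997 (CAMK2A). Their high values all came from the stressed Chinese Field Dog pituitary. Without it CAMK2A was called higher in adrenal cortex (log2 difference −1.56, limma adjusted p = 0.00048). Ciliated and airway genes were low but called higher in pituitary for 3 of 4: TEKT1 of motile cilia was at 6.01, 4.89, 6.67 and 8.26 FPKM against 0, 0.103, 0 and 0.124 FPKM, and the airway protein SCGB1A1 reached 55 FPKM in the unexposed Beagle pituitary against 1.32 to 5.47 in the others and 0 in adrenal cortex. BPIFA1, another airway protein, was also highest there at 10.9 FPKM.

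**Figure D5:**
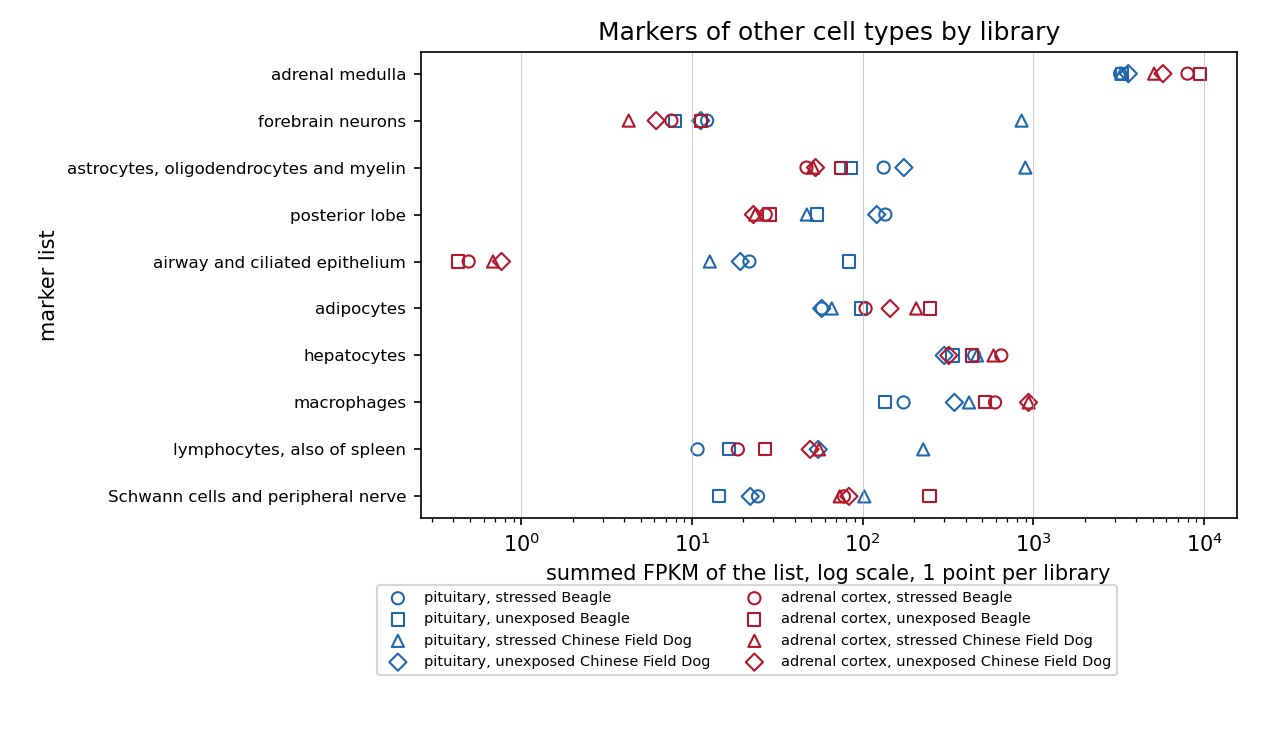
Summed FPKM (log axis) of 10 lists of markers of other cell types, 1 point per library; colour marks the gland and symbol the kind of dog. The stressed Chinese Field Dog pituitary stands apart for forebrain and glial genes, the unexposed Beagle pituitary for airway genes, and the unexposed Beagle adrenal cortex is highest for medulla and Schwann cell genes.

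Markers of vessels, connective tissue and macrophages were called on the adrenal side more than on the pituitary side. Endothelial genes were called higher in adrenal cortex for 6 of 13 and in pituitary for none. EMCN, an endothelial sialomucin, was at 50.9, 48.1, 59.3 and 36.5 FPKM against 15, 14.6, 13.2 and 13.9 FPKM, while PLVAP, of fenestrated capillaries in both glands, was at 87.3, 70.5, 88 and 69.1 and 61.5, 72.9, 51.8 and 80.5 FPKM and was not called. Fibroblast and matrix genes were called higher in adrenal cortex for 9 of 14: COL3A1, a fibrillar collagen, was at 50.9, 57, 53.1 and 47 FPKM against 8.91, 8.28, 7.25 and 12.3 FPKM (log2 difference −2.40 ± 0.15, limma adjusted p = 3.95e-06). POSTN, the matrix protein periostin, went against the list at 7.84, 14.6, 5.12 and 17.3 FPKM in pituitary and 0.576, 1.56, 2.36 and 1.5 FPKM in adrenal cortex. Its call was lost in the Chinese Field Dog libraries alone (limma adjusted p = 0.0682). In the fit that left out the stressed Chinese Field Dog pituitary, 9 matrix genes were again called higher in adrenal cortex, with PDGFRA in (log2 difference −1.08) and LUM out (−0.85).

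Macrophage genes were called higher in adrenal cortex for 6 of 11. CD163, a haemoglobin scavenger receptor, was at 44.3, 42.5, 67.2 and 93 FPKM against 3.68, 5.45, 4.19 and 9.18 FPKM (log2 difference −3.24 ± 0.31, limma adjusted p = 4.82e-05), and C1QC, a complement subunit, at 208, 169.6, 338 and 316 FPKM against 45.5, 35.7, 142 and 109 FPKM. Both Chinese Field Dog libraries of each gland were above both Beagle libraries for C1QC. Adipocyte genes were called higher in adrenal cortex for 6 of 8. The adiponectin gene, APM1 in the files, was at 5.67, 34.3, 25.4 and 13.3 FPKM against 0, 0, 0.16 and 0 FPKM, spread widely over the adrenal libraries. PNPLA2, a lipase of many tissues, was not called (39.8, 58.2, 46.6 and 49.2 and 32.5, 62.2, 29.4 and 32.9 FPKM).

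Schwann cell and nerve genes were called higher in adrenal cortex for 5 of 7. NGFR, the low-affinity receptor of nerve growth factor, was at 8.72, 52.9, 7.55 and 13.3 FPKM in adrenal cortex against 0.542, 0.731, 0.664 and 1.27 FPKM in pituitary, highest in the unexposed Beagle adrenal cortex. Muscle genes were split: TAGLN of smooth muscle was at 283, 290.4, 361 and 276 FPKM against 24.6, 20.6, 15 and 23.8 FPKM, while MYH7, a slow myosin, was at 6.73, 5.79, 6.87 and 11.7 FPKM in pituitary against 0.731, 0.542, 0.496 and 0.548 FPKM. Of 7 muscle genes, 4 were called higher in adrenal cortex and 2 in pituitary; ACTA1, the other of the 2, lost its call in the Beagle libraries alone (log2 difference 0.81).

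Of 8 hepatocyte genes, 3 were called higher in adrenal cortex (FGG, HP and APOB) and TTR higher in pituitary. FGG, a fibrinogen chain, was at 41.5, 38.4, 106 and 9.78 FPKM against 0, 0, 1.08 and 0.213 FPKM. TTR, transthyretin, was at 86.3, 6.69, 6.57 and 9.26 FPKM against 1.95, 0, 0.564 and 0 FPKM, with the stressed Beagle pituitary far above the other 3, and lost its call in the Beagle libraries alone (limma adjusted p = 0.0656). ALB and APOA2 were not called, with ALB at 27.6, 0.79, 9.09 and 0.121 FPKM in adrenal cortex. Both were called without the unexposed Chinese Field Dog adrenal cortex (limma adjusted p = 0.0319 and 0.0117), and APOA2 also without the unexposed Beagle adrenal cortex (0.0492).

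Lymphocyte genes did not separate the glands. CD79B, of B cells, was called higher in pituitary at 0.945, 5.3, 4.01 and 1.71 FPKM against 0, 0.728, 0.322 and 0.824 FPKM, 1 of 11, and lost its call within either breed (limma adjusted p = 0.14 in Beagle and 0.0746 in Chinese Field Dog). CCL5, a chemokine of cytotoxic cells, was at 2.65, 3.45, 138 and 6.68 FPKM in pituitary and 10.6, 14.1, 19.3 and 11.3 FPKM in adrenal cortex. It was called higher in adrenal cortex without the stressed Chinese Field Dog pituitary (log2 difference −1.53, limma adjusted p = 0.00251). Of 9 proliferation genes 1 was called, AURKB, a mitotic kinase, at 12.3, 13.7, 8.6 and 12.5 FPKM in pituitary and 3.71, 5.22, 3.3 and 4.39 FPKM in adrenal cortex. ALAS2, the erythroid gene tested, was at 4.45, 3.86, 2.47 and 3.72 and 3.87, 3.9, 3.4 and 3.78 FPKM.

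Whether the gland difference itself differed between breeds or between exposures was tested as an interaction, which left 2 residual degrees of freedom. For breed, 5 genes passed an adjusted p of 0.05 (0.0338%) and 675 an unadjusted one (4.56%). For exposure, 1 gene passed (0.00675%) and 498 an unadjusted p (3.36%). Each of these genes rested on at most 2 reads in any library. On recovered reads edgeR passed 0 genes for either interaction, and DESeq2 62 for breed and 29 for exposure. Among genes with at least 100 reads in every library of a gland, the lowest p for breed was that of HAO2, whose log2 difference was −5.25 and −5.85 in the Beagle pairs and −7.52 and −8.35 in the Chinese Field Dog pairs (stressed, then unexposed; limma adjusted p = 0.23). ADCYAP1R1, the receptor for the peptide PACAP, was at 28.8, 19.1, 53.7 and 32.3 FPKM in pituitary and 17.4, 25.8, 7.44 and 13.4 FPKM in adrenal cortex. With limma it missed the threshold for breed (adjusted p = 0.455) and for exposure (0.93), as it did with edgeR (0.660 and 0.956). With DESeq2 it passed both (adjusted p = 1.31e-06 and 0.00191). Its call as higher in pituitary was lost without any 1 library except the unexposed Beagle ones (limma adjusted p from 0.0682 to 0.109). Without the stressed Chinese Field Dog pituitary its log2 difference was 0.79 (limma adjusted p = 0.101), and it was 0.14 in the Beagle libraries alone.

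For exposure, again among genes with at least 100 reads in every library of a gland, the lowest p values belonged to RSPO3 and ISG15. RSPO3, a WNT co-ligand of the adrenal capsule, had log2 differences of −2.17 and −1.38 in the stressed pairs and −3.39 and −2.83 in the unexposed pairs. ISG15, an interferon-induced ubiquitin-like protein, was at 56.2, 15.5, 102 and 36.8 FPKM in pituitary and 68.9, 81.1, 98.2 and 91.4 FPKM in adrenal cortex. Its 2 stressed pituitaries were above its 2 unexposed ones. The ISG15 interaction missed the threshold with limma (adjusted p = 0.93) and edgeR (0.956) and passed it with DESeq2 (0.000913). ISG15 was called higher in adrenal cortex without the stressed Chinese Field Dog pituitary (log2 difference −1.37, limma adjusted p = 0.0150). With 1 library of each kind, these data allow no firmer statement on how breed or exposure changes the difference between the glands.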

How the data were processed

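RNA was measured in 8 libraries, 4 of pituitary and 4 of adrenal cortex. TopHat and the dog assembly CanFam3.1 are named in the submitters' processing notes; annotation, counting tool and strand handling are not given in the sources used here. The deposited tables hold, per gene and library, a fragment count that the authors scaled by 1 factor per library (a signal, not whole numbers) and an FPKM value the authors computed. The authors' ratio and p columns were not used. The 8 tables were joined by gene identifier, and 16 of 16 repeated columns were identical. Dividing the scaled counts by the step of each library (0.899 to 1.17) gave whole reads, within 0.02, for 99.5% to 99.8% of low values. In 1 library of each gland (stressed Chinese Field Dog pituitary, and adrenal cortex of the stressed Beagle) the step lay close to 1, so their reads are near the true counts rather than exact.

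Genes with a mean of at least 1 FPKM were tested with limma 3.58.1 (trend) in R 4.3.3 on log2(FPKM + 1), pseudocount 1, on all 8 libraries (6 residual degrees of freedom), with Benjamini-Hochberg adjustment over 14808 genes. The procedure was tested on simulated data. GH1 and RRBP1, marked as failed in the unexposed Beagle pituitary, were set missing there. Of 526 entries in 32 gene lists, 442 matched a gene (3 by an older symbol in a RefSeq table), 14 stood on more than 1 gene and 70 were not matched; 397 were tested. Genes are named by a rule: the 5 markers; the 12 largest differences in each direction with at least 100 reads in each library of the higher gland; the 10 highest levels per gland; the highest member, up to 4 largest differences and members called against the majority of each list; the 5 most even abundant genes; the 3 lowest p values per interaction; and genes with 0 reads in 1 gland. Other list members named were chosen after their values were seen. Some genes that the rule picks are not reported here; they remain in the counts and summed levels of their lists. The members and lists were chosen with earlier results of these data known. Alternatives were edgeR 4.0.16 and DESeq2 1.42.0 on recovered reads, other filters and pseudocounts, median centring, each breed alone, each library left out and a block for the matched pairs.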

Additional observations from a re-analysis of the deposited data

Results flagged for a closer look

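Among the genes named for the largest differences, 6 had 1 library far from the other 3 of its gland, with the gap to its nearest neighbour on the log2(FPKM + 1) scale, as a share of the whole range, above Dixon's critical value for 4 libraries. The stressed Chinese Field Dog pituitary was low for LHB, at 4603 FPKM, and for TBX19, at 76.7 FPKM; on the FPKM scale itself both fell just short of that value. The unexposed Beagle adrenal cortex was low for INSL3, at 108 FPKM, and high for TH, at 255 FPKM. PITX1 at 0.0504 FPKM in adrenal cortex of the unexposed Chinese Field Dog and LHX3 at 0.0664 FPKM in the unexposed Beagle adrenal cortex were the only nonzero values of their group for these genes. For normally distributed values, chance alone marks about 1 in 20 groups, and 68 groups were looked at. Where the other 3 values are 0, any value above 0 is marked. The marks of PITX1 and LHX3 were fixed in this way, and that rate does not apply to them.

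The gland difference differed between breeds or exposures by limma's interaction test for 6 genes, all with at most 2 reads in any library. As the difference of 2 log2 differences, Chinese Field Dog minus Beagle, the values were −18.5 for SNORD22, −12.5 for MIAT_exon5_2, 11.6 for SNORD14, −13.4 for ENSCAFG00000032549 and −11.2 for ENSCAFG00000030251. For exposure, stressed minus unexposed, ENSCAFG00000031618 had 11.1. Few reads made high FPKM values in these genes: MIAT_exon5_2 was at 6092 and 5894 FPKM in the Beagle pituitaries on at most 2 reads.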

How the results depend on the processing

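Over 180 named genes, 3359 alternative values were computed: 3288 kept direction and side of the threshold, 61 lost the call, 10 gained it and 0 changed direction. Higher in pituitary were 2198 genes; a filter at a mean of 5 FPKM gave 1377, DESeq2 3248, edgeR 2982, the Beagle libraries 2017 and the Chinese Field Dog libraries 2100. Higher in adrenal cortex were 1748; DESeq2 gave 2196 and edgeR 2044. At least 8-fold higher in pituitary were 265; DESeq2 gave 1177, edgeR 1011 and a pseudocount of 0.1 gave 742. On the adrenal side 198 became 416, 338 and 331. The breed interaction (5 genes) gave 62 with DESeq2, 0 with edgeR, 0 without any 1 adrenal cortex library and 43 to 50 without any 1 pituitary library, a range of 0 to 50. The exposure interaction (1 gene) gave 29 with DESeq2, 0 with edgeR, 0 with a pseudocount of 0.1, 0 without any 1 adrenal cortex library and 36 to 40 without any 1 pituitary library, a range of 0 to 40. A replicate block for the 4 matched pairs gave 2164 and 1747 genes, and 265 and 198 at least 8-fold. Deviations of paired libraries correlated between −0.0266 and 0.171, so the pairs share breed and exposure and no more is shown; ADCYAP1R1, GFAP, LUM and SQLE lost their calls under the block. The causes of these changes were not tested. The alternatives with a mean of at least 50 recovered reads and with failed values taken as 0 were chosen after seeing the data.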

Other observations

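HOX genes, the homeobox genes that mark position along the trunk, were looked at after HOXA6 and HOXC6 stood out by having no pituitary reads. Of 36 HOX genes found by symbol, 16 passed the level filter, and all 16 were called higher in adrenal cortex without overlap. Of all genes tested, 11.8% were called in that direction and 29.5% did not overlap on the adrenal side. The highest value of these 16 in any pituitary library was 0.521 FPKM and the lowest in any adrenal library 1.78 FPKM. HOXD8 was at 101 to 112 FPKM in adrenal cortex and HOXA5 at 41.3 to 68.1 FPKM, while HOXA7 reached 25.0 FPKM and HOXC9 15.1 FPKM. The 20 HOX genes below the filter reached at most 2.72 FPKM in adrenal cortex and 0.315 FPKM in pituitary. Among them HOXB1, HOXB13, HOXC11, HOXC12, HOXC13 and HOXD12 were at 0 in all 8 libraries. With pituitary values this low, a HOX gene could pass the level filter only through the adrenal libraries, which fixed the direction in advance. The set was also chosen after values were seen, so the counts are a description and no test.

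Epithelial genes, also chosen after values were seen, showed the opposite picture. Of 12, 11 were called higher in pituitary without overlap, and CLDN4 was not called. Of all genes tested, 14.8% were called in that direction and 28.5% did not overlap on the pituitary side. The epithelial counts are likewise a description and no test. EPCAM, an epithelial adhesion molecule, was at 193 to 313 FPKM in pituitary and 21.0 to 39.6 FPKM in adrenal cortex. CDH1, which encodes E-cadherin, was at 32.6 to 53.3 FPKM against 0.359 to 1.62 FPKM. CLDN7, a tight-junction claudin, was at 50.7 to 78.1 FPKM against 0.146 to 1.05 FPKM, and ESRP1, an epithelial splicing factor, at 8.80 to 14.2 FPKM against 0.0148 to 0.117 FPKM.

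The hormone and steroid-enzyme genes each had a level above 0 in at least 1 library of the other gland, unlike GHRHR, GNRHR, SIX6, MC2R and MRAP, which had no reads there. The ratio of mean FPKM, pituitary over adrenal cortex, was 4257 for GH1, 5663 for PRL, 4371 for POMC, 4552 for CGA, 4383 for LHB and 2959 for FSHB, but 82.7 for TSHB. The ratio of adrenal cortex over pituitary was 1573 for CYP17A1, 1559 for HSD3B, 1141 for CYP21, 890 for CYP11A1 and 520 for STAR, and 57.3 and 24.0 for FDX1 and FDXR. In pituitary, CYP17A1, HSD3B, CYP21 and CYP11A1 were each lowest in the unexposed Beagle and highest in the stressed Chinese Field Dog. The sources of these low values were not tested.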
